A study of Mus musculus with 6 samples.

Results

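The genes described here encode integrin chains, other adhesion receptors with their ligands, and the proteins that link such receptors to the actin cytoskeleton. They were chosen by name, as a list of 48 mouse genes drawn up with earlier results of these data known. Of these, 47 had a probe set (a group of array probes read as 1 value) assigned to them alone and were measured among 19936 genes in all. Ptk2 was not analysed here. The members were 12 integrin alpha chains, 6 integrin beta chains, 9 other adhesion receptors and ligands, and 20 of 21 listed cytoskeletal linkers and adaptors. The study measured total RNA on 6 Affymetrix arrays. The cells called IKZF1 below were mouse pre-B cells transduced with the retroviral construct pMIG-IKZF1, which supplies the zinc finger transcription factor Ikaros (3 arrays), and their controls received pMIG alone, called empty vector (3 arrays). Both groups carried BCR-ABL1, a fusion tyrosine kinase that drives a form of acute leukaemia, came from C57Bl6 mice of 4 weeks with the genotype given as wild-type, and were sorted for GFP 3 days after transduction. The species and isoform of the inserted IKZF1 are not stated in the labels. Nor is it stated if replicates are separate cultures or animals, so the p-values speak only of how far these arrays vary, which could be technical variation.

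Integrins are pairs of an alpha and a beta chain that span the membrane, bind matrix proteins or counter-receptors on other cells, and hold the actin cytoskeleton through talin, kindlin, vinculin, filamin and alpha-actinin. The beta chain tail recruits most linkers and the alpha chain sets much of the ligand choice. In the bone marrow, early B cells adhere to stroma mainly through integrins that contain the alpha 4 chain and the counter-receptor VCAM-1. Ikaros is a regulator of lymphocyte development whose loss is frequent in BCR-ABL1 leukaemia, and adhesion genes are among those it has been studied for in pre-B cells.

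Levels are given as log2(intensity + 1), and differences as IKZF1 minus empty vector on that scale. Ikzf1 read 13.09, 13.14 and 13.06 on the IKZF1 arrays, against 11.85, 11.78 and 11.98 on the empty vector arrays. As a line for background, 95% of 1194 olfactory and vomeronasal receptor genes had a mean below 6.24 in IKZF1 and below 6.12 in empty vector. Above it in at least 1 group were 35 of the 47 members, against 64.4% of all genes. Empty vector array 3 stood apart from its group: it was the lowest of the 3 empty vector arrays for 30 of the 47 members (63.8%), against 37.4% of all genes, and differences that it moves by more than 1.5 times are given without it as well for members above background. All 9 measured markers of the B lineage lay above background on every array. In the test used below 0 of the 9 passed, and 3 (33.3%) had an unadjusted p under 0.05, against 18.4% of all genes. Empty vector 3 was the highest empty vector array for 7 of these 9 markers, among them the recombinase gene Rag1 (9.70, against 7.93 and 6.52 on the other empty vector arrays) and Dntt (9.39, against 8.63 and 7.66). Markers of monocytes, granulocytes, T and NK cells, stroma and endothelium, megakaryocytes and erythroid cells were also measured, 46 in all. Of these 46, 18 lay above background in at least 1 group mean. On all 6 arrays this held for 12 markers: Cd68 and Cx3cr1 of monocytes, Prtn3 and Camp of granulocytes, Cd3e, Cd5 and Lat of T and NK cells, the collagen genes Col1a1, Col1a2 and Col3a1 of stroma, and Gp9 and Itga2b of megakaryocytes. Among the 28 not above background in either group mean were Csf1r, Adgre1, Elane, Mpo, Cd3d, Cd3g, Cd4, Pdgfra, Cdh5 and Pf4. Lat read 9.02, 9.29 and 8.59 in IKZF1, against 10.08, 10.37 and 7.34 in empty vector, lowest on array 3 of each group. In limma 0 of the 46 passed an adjusted p of 0.05, against 1.12% (higher) and 1.13% (lower) of all genes. With shares so small, 0 of 9 and 0 of 46 say little. Of the 46, 5 (10.9%) had an unadjusted p under 0.05, against 18.4% of all genes. Col1a1 was higher with the replicate block (adjusted p = 0.0499). The summed intensity of the 46 was 3421 to 4077 on the IKZF1 arrays and 3125 to 4425 on the empty vector arrays. In RNA from whole sorted samples, fewer cells of a kind and less RNA per cell cannot be told apart.

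In the IKZF1 cells the integrin chain gene Itgb7 and the alpha-actinin gene Actn1 rose, and the integrin chain gene Itgal fell. These 3 were the members past an adjusted p of 0.05 in limma with group as the only term, with 13 of 47 (27.7%) at an unadjusted p under 0.05 against 18.4% of all genes, so that 2 of 47 were higher (1.12% of all genes) and 1 was lower (1.13% of all genes). Replicate numbers 1 to 3 are shared between the groups, and with that number as a block 6 members were higher (3.36% of all genes) and 5 lower (3.85% of all genes). The 8 members added by the block were Itgb3, Icam1, Flna and Ptk2b on the higher side and Itgb1, Ctnnd1, Tns3 and Anxa1 on the lower side. The arrays of the groups did not overlap for 14 of the 47 members, or 29.8%, which is close to the 26.5% of all genes. The median difference was 0.11 over the members and 0.03 over all genes, and 32 members (68.1%) lay above 0, against 59.2% of all genes. Some of the 32, among them Fn1, Lgals1, Emp1, Vcl and Itgb2, lay below 0 without empty vector 3. The list was drawn up with earlier results of these data known, so none of these shares tests the list as a set.

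**Figure D1:**
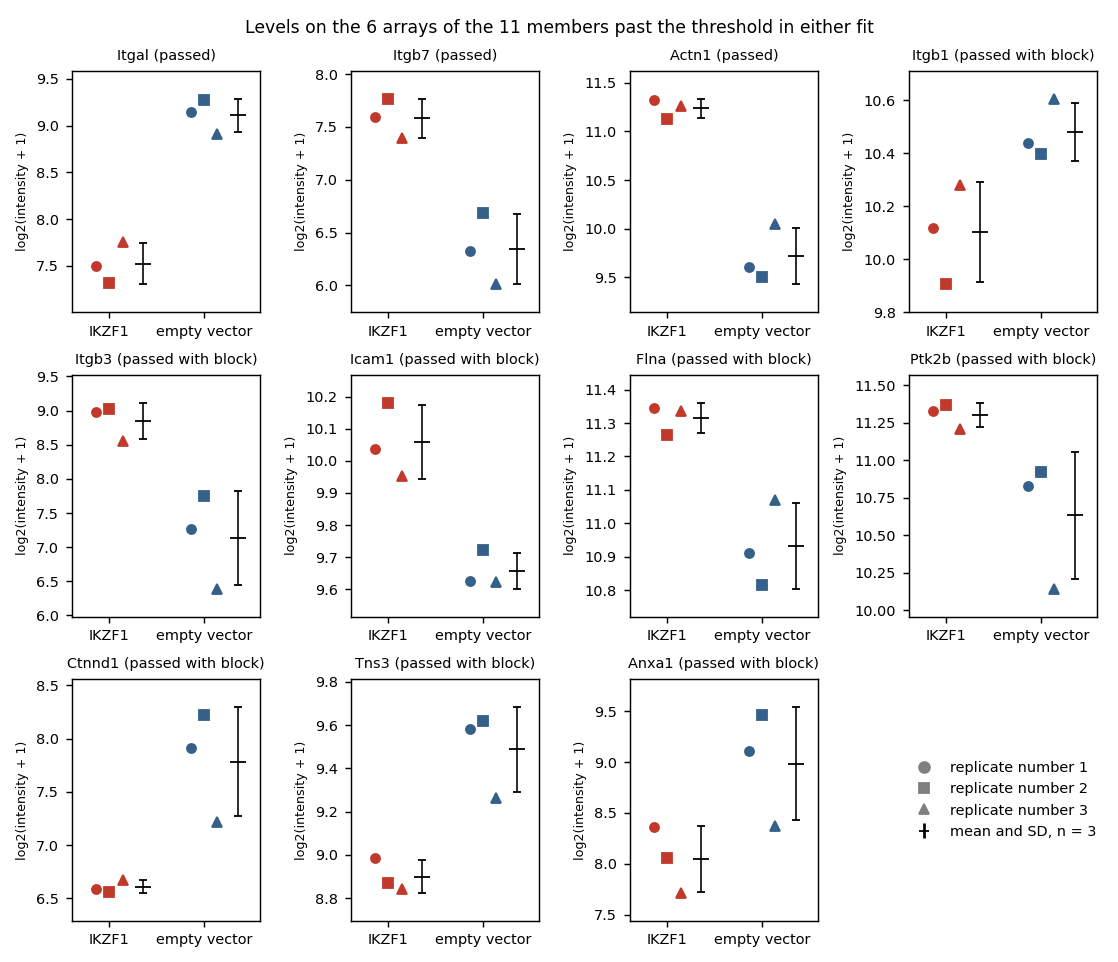
Log2(intensity + 1) of the 11 members past the threshold in either fit, on the 3 IKZF1 (red) and 3 empty vector (blue) arrays; symbols give the replicate number, and bars the mean and SD (n = 3). Every IKZF1 array lies on one side of every empty vector array in each panel, and empty vector 3 is far below the other empty vector arrays for Itgb3, Anxa1, Ptk2b and Ctnnd1. Each panel has its own vertical axis, which does not start at 0.

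Among the alpha chains, Itgal was the only one of 12 to pass, where 1.12% (higher) and 1.13% (lower) of all genes passed. Itgal (probe set 10557591) encodes the alpha chain of LFA-1, the leukocyte integrin that binds ICAM proteins. It read 7.50, 7.31 and 7.75 on the IKZF1 arrays, against 9.14, 9.27 and 8.91 on the empty vector arrays. All arrays lay above background and the groups were far apart. The level averaged 7.52 ± 0.22 in IKZF1 and 9.11 ± 0.18 in empty vector (SD, n = 3 each), a difference of -1.59 ± 0.14 (SE), or 3.01-fold lower (limma, adjusted p = 0.00689). The same-numbered differences were -1.65, -1.96 and -1.16. Leaving out single arrays kept the difference between -1.70 and -1.48. Omitting IKZF1 1 lost the call (adjusted p = 0.0642), as did omitting empty vector 1 (0.0650). The call held without any of the other 4 (adjusted p from 0.0031 to 0.0450). Without IKZF1 1, 22 of all 19936 genes were higher and 2 lower, and without empty vector 1, 21 and 7. With all arrays these counts were 223 and 225. Calls over all genes became fewer in each omission except that of empty vector 3 (360 and 587).

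Itgam encodes the alpha chain of the myeloid integrin Mac-1, and Itgax encodes CD11c, a myeloid integrin alpha chain. Both lie on chromosome 7, as Itgal does. Neither was above background in a group mean, and their differences were 0.12 (95% interval -0.11 to 0.36) and -0.04 (-0.20 to 0.12). Itgad, the other leukocyte alpha chain gene of that chromosome, did not pass either.

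Itga4, the alpha chain shared by VLA-4 and the gut-homing integrin with the beta 7 chain, read 12.01, 12.07 and 11.74 in IKZF1, against 11.77, 11.92 and 11.22 in empty vector. Its groups overlapped, with a difference of 0.31 (95% interval -0.15 to 0.77, adjusted p = 0.436) that shrank to 0.097 when empty vector 3 was omitted. Itga6, a laminin receptor chain, read 11.31, 11.28 and 11.26 in IKZF1, against 11.59, 11.74 and 10.70 in empty vector. The IKZF1 arrays agree within 0.03 (SD, n = 3), while empty vector 3 lay below all of them and the other 2 empty vector arrays above. Over all arrays the difference of Itga6 was -0.06 (adjusted p = 0.913), and without empty vector 3 it was -0.38 (adjusted p = 0.0449), so that array alone decided the call. Itgav, the alpha chain of vitronectin receptors, had a difference of -0.01 with a 95% interval of -0.16 to 0.15 (-0.023 without empty vector 3). Itga9, a chain for tenascin and VCAM-1, had 0.18 (-0.18 to 0.55), and 0.0045 without that array.

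The collagen receptor chains Itga1 (-0.07) and Itga2 (0.03), the laminin receptor chain Itga3 (0.13), the fibronectin receptor chain Itga5 (0.20) and Itgae (0.13), which pairs with beta 7 in intraepithelial lymphocytes, were not above background in either group mean. Differences of such dim probe sets may be understated, since background signal is part of the reading. The groups of Itgae did not overlap, with the IKZF1 arrays at 5.53, 5.69 and 5.63 and the empty vector arrays at 5.43, 5.51 and 5.51, but the adjusted p was 0.340.

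Among the beta chains Itgb7 rose. Itgb7 (probe set 10432957) encodes the beta chain that pairs with the alpha 4 and alpha E chains. It read 7.59, 7.76 and 7.39 on the IKZF1 arrays, against 6.33, 6.69 and 6.02 on the empty vector arrays. Every IKZF1 array was above every empty vector array, and empty vector 3 lay below the background line, so the size of the rise rests in part on a reading close to background. The mean was 7.58 ± 0.19 in IKZF1 and 6.34 ± 0.34 in empty vector (SD, n = 3 each), a difference of 1.24 ± 0.18 (SE), or 2.36-fold higher (adjusted p = 0.0286, and 0.0041 with the replicate block). The same-numbered differences, 1.26, 1.08 and 1.38, were closer together than the arrays of either group. Without single arrays the difference stayed between 1.07 and 1.41. The call was lost without IKZF1 1, 2 or 3 (adjusted p = 0.129, 0.109 and 0.0827) and without empty vector 1 (adjusted p = 0.162), and held without empty vector 2 or 3 (adjusted p = 0.0311 and 0.0149).

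Itgb3, the beta chain of the vitronectin and platelet fibrinogen receptors, had the largest difference of all 47 members over all 6 arrays, though not when empty vector 3 was omitted. It read 8.98, 9.02 and 8.55 in IKZF1, against 7.26, 7.75 and 6.39 in empty vector. The groups did not overlap, but the empty vector arrays spread by 0.69 (SD, n = 3), with array 3 lowest. The difference was 1.72 ± 0.34 (SE), or 3.29-fold higher. It did not pass with group as the only term (adjusted p = 0.0599) but did so with the replicate block (0.0099), when the prior followed intensity (0.0492), and without empty vector 3 (1.35, adjusted p = 0.0167).

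Itgb1, the beta chain of the VLA integrins, read 10.12, 9.90 and 10.28 in IKZF1, against 10.44, 10.40 and 10.61 in empty vector. All IKZF1 arrays were below all empty vector arrays, by a modest amount. The difference was -0.38 ± 0.11 (SE; adjusted p = 0.151), and it passed with the replicate block alone (adjusted p = 0.0348), where the same-numbered differences were -0.32, -0.49 and -0.33. Itgb2, the beta chain of all leukocyte integrins that include LFA-1, read 10.51, 10.58 and 10.42 in IKZF1, against 10.53, 10.78 and 9.84 in empty vector. Its groups overlapped, and the difference of 0.12 had a wide 95% interval of -0.43 to 0.67. Without empty vector 3 it was -0.15 (adjusted p = 0.452). Itgb5 (-0.10) and Itgb8 (0.04), which pair with the alpha V chain, were not above background.

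Set beside their partners, the chains of 1 heterodimer thus gave unlike readings. For LFA-1, Itgal had -1.59 and Itgb2 0.12. For the pair of the alpha 4 and beta 7 chains, Itga4 had 0.31 and Itgb7 1.24, and for the pair of alpha V and beta 3, Itgav had -0.01 and Itgb3 1.72. For VLA-4, Itga4 had 0.31 and Itgb1 -0.38. Of these chains, Itga4 had 0.097 and Itgb2 -0.15 when empty vector 3 was omitted, and Itgb1 stayed within 1.5 times its value. Whether the chains of a pair differ from each other was not tested, and levels of different probe sets cannot be set against each other. Of 9 further integrin chain genes, 0 passed in limma, in either direction and with or without the block. An unadjusted p under 0.05 was found for 0 of the 9, against 18.4% of all genes. The groups did not overlap for 4 of the 9 (44.4%), each with the IKZF1 arrays above, against 26.5% of all genes. Differences lay above 0 for 7 of the 9 (77.8%), against 59.2% of all genes. The smallest p was that of Itga2b, the platelet partner of Itgb3, with a difference of 0.15 (adjusted p = 0.282).

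**Figure D2:**
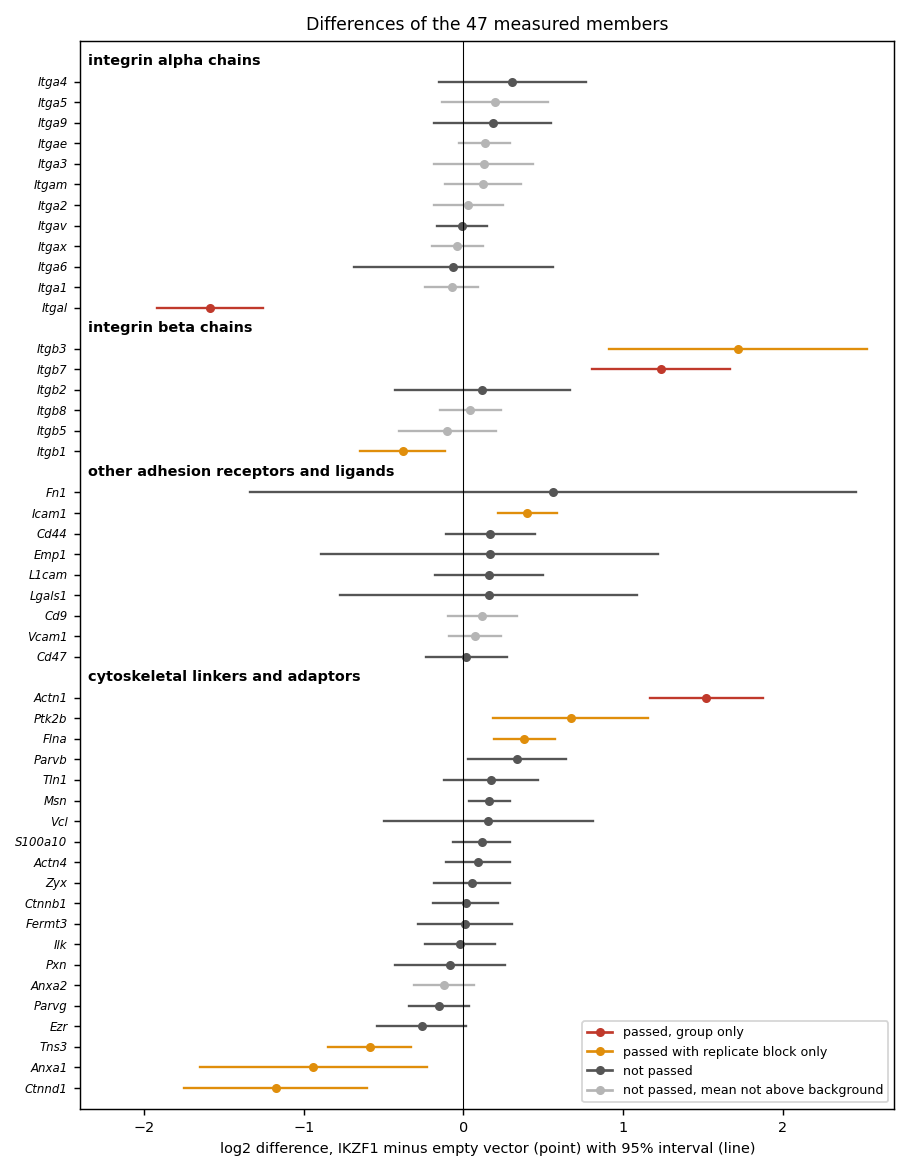
Log2 differences (points, IKZF1 minus empty vector) of the 47 measured members with their 95% intervals (lines), grouped by role. Itgal at -1.59, Itgb7 at 1.24 and Actn1 at 1.52 passed with group as the only term (red), 8 members passed with the replicate block alone (orange), and Fn1 has the widest interval, from -1.33 to 2.46.

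None of the 9 other adhesion receptors and ligands passed with group as the only term, where 1.12% (higher) and 1.13% (lower) of all genes passed. In limma 1 of the 9 (11.1%) had an unadjusted p under 0.05, against 18.4% of all genes. All 9 differences lay above 0, as did 59.2% of all genes. Those of Fn1, Lgals1, Emp1 and Cd47 lay below 0 without empty vector 3. Icam1, the ligand of LFA-1 and a counter-receptor induced on many activated cells, came closest to passing. It read 10.04, 10.18 and 9.95 in IKZF1, against 9.63, 9.72 and 9.62 in empty vector, with a clear gap between the groups. The difference was 0.40 ± 0.08 (SE), or 1.32-fold higher (adjusted p = 0.0583). It passed with the replicate block (0.0264) and with a pseudocount of 16 (0.0486). Icam2, a further LFA-1 ligand that was picked out after its value was seen, had a difference of 0.65 (adjusted p = 0.0593, and 0.0172 with the block).

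Cd44, the hyaluronan receptor, had 0.17 (95% interval -0.11 to 0.45), or 0.039 with empty vector 3 omitted. Cd47, the partner of SIRP alpha and thrombospondin, had 0.02 (-0.24 to 0.27), or -0.092 with that array omitted. Cd47 was the only member with a further probe set, which gave -0.07 (adjusted p = 0.853). The neural adhesion molecule gene L1cam (0.16) lay close to background, at 6.51 in IKZF1 and 6.35 in empty vector. The tetraspanin gene Cd9 (0.12) and Vcam1 (0.07), the counter-receptor of VLA-4, were not above background in either group.

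For Fn1, Lgals1 and Emp1, 1 array set the sign of the difference. Fn1 encodes fibronectin, the matrix ligand of several integrins, and read 8.85, 8.996 and 8.15 in IKZF1, against 8.90, 9.24 and 6.16 in empty vector. Lgals1, the gene of galectin 1, which binds sugars on surface receptors, read 12.66, 12.91 and 12.50 in IKZF1, against 12.91, 13.10 and 11.58 in empty vector. Emp1, a membrane protein gene of the PMP22 family, read 10.75, 11.06 and 10.31 in IKZF1, against 11.06, 11.05 and 9.51 in empty vector. In each of the 3 genes number 3 was the lowest in each group, and empty vector 3 lay far below all other arrays. The differences over all arrays were 0.56, 0.16 and 0.17, and without empty vector 3 they were -0.41, -0.32 and -0.35, none past the threshold in either setting (adjusted p from 0.263 to 0.857).

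**Figure D3:**
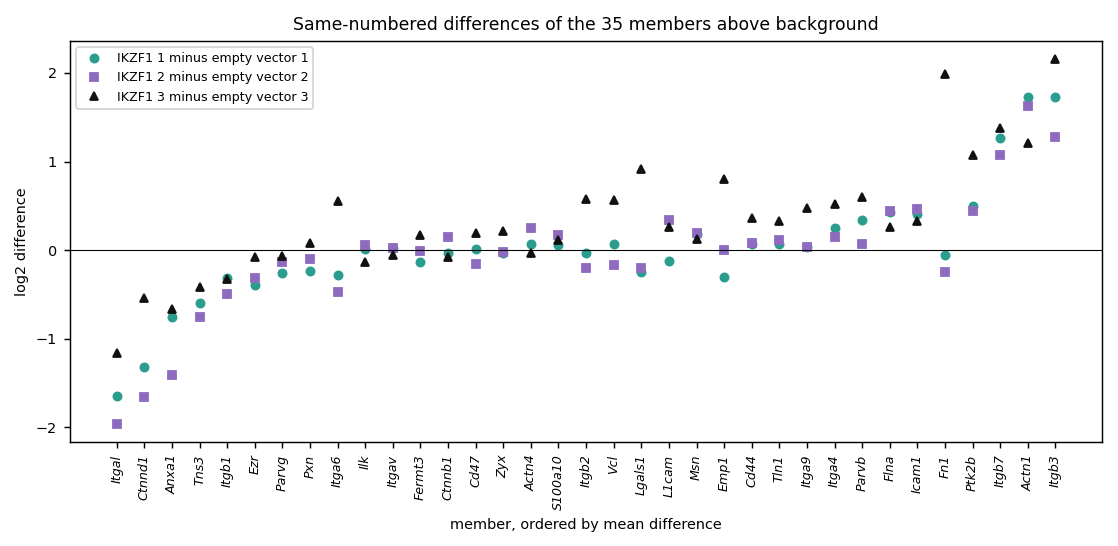
Differences between same-numbered arrays (IKZF1 minus empty vector, log2 scale) for the 35 members above background in at least 1 group, ordered by mean difference. Number 3 (triangles) departs from numbers 1 and 2 for Fn1 (1.99 against -0.05 and -0.24), Lgals1, Emp1, Itga6 and Itgb2, while Itgb7, Actn1, Itgb3 and Itgal keep 1 side of 0 in all 3.

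Among the cytoskeletal linkers Actn1 rose and 19 of 20 did not pass. Actn1 (probe set 10401244) encodes alpha-actinin 1, which crosslinks actin filaments and ties them to integrin beta tails. It read 11.33, 11.13 and 11.26 in IKZF1, against 9.60, 9.50 and 10.05 in empty vector. The groups were separated by more than 1 on the log2 scale, beyond the spread of either. The mean was 11.24 ± 0.10 in IKZF1 and 9.72 ± 0.29 in empty vector (SD, n = 3 each), a difference of 1.52 ± 0.15 (SE), or 2.87-fold higher (adjusted p = 0.00989). The same-numbered differences were 1.73, 1.63 and 1.21. Without single arrays the difference stayed between 1.41 and 1.69. The call was lost without IKZF1 1, 2 or 3 (adjusted p = 0.0763, 0.0514 and 0.0565) and without empty vector 1 (adjusted p = 0.0786), and held without empty vector 2 or 3 (adjusted p = 0.0311 and 0.00096). The sister gene Actn4, for alpha-actinin 4, read 12.61, 12.65 and 12.66 in IKZF1, against 12.54, 12.41 and 12.70 in empty vector, a difference of 0.09 with a 95% interval of -0.11 to 0.29 (0.17 with empty vector 3 omitted).

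Upstream sequences were available for both genes that rose, and are shown because they are the stretch in which a match to the Ikaros core motif could be looked for. TGGGAA was searched on both strands (as TTCCCA on the other), in windows from 250 bases before to 50 after the annotated start (RefSeq, GRCm38.p6). A match was found for 6 of the 36 members with a window, 16.7%, against 28.3% of 27025 genes. Of the 11 members past the threshold in either fit, 8 had a window. Actn1 held 2 matches, and Itgb7 and the other 6 held none in these letters. The matches are a description of the sequence and say nothing of binding. The 250 bases before the start are printed 5′ to 3′ on the strand of the gene, with matches in capitals. Actn1 is at chr12:80260364-80260613 and Itgb7 at chr15:102231936-102232185, both on the minus strand.
Actn1: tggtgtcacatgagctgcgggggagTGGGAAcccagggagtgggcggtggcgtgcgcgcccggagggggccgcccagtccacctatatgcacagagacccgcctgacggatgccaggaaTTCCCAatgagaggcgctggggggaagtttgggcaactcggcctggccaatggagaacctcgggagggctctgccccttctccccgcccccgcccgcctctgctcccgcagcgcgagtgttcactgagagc
Itgb7: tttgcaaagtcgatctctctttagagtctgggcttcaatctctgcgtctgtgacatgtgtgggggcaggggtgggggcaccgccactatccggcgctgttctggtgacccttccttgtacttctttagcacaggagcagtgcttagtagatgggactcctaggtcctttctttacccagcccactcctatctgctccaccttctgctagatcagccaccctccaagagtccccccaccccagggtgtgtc

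A further 2 actin-side genes were higher with the replicate block. Flna encodes filamin A, which crosslinks actin and binds integrin beta tails, and read 11.35, 11.26 and 11.34 in IKZF1, against 10.91, 10.82 and 11.07 in empty vector. Its groups did not overlap, with a difference of 0.38 ± 0.08 (SE; adjusted p = 0.0685). It passed with the block (0.0346) and when empty vector 3 was left out (0.0250). Ptk2b encodes PYK2, a kinase related to focal adhesion kinase that is prominent in blood cells, and read 11.33, 11.37 and 11.21 in IKZF1, against 10.83, 10.92 and 10.14 in empty vector. Its difference of 0.67 ± 0.20 (SE) had an adjusted p of 0.158, and with the block of 0.0446. It was 0.43 without empty vector 3 (adjusted p = 0.0372).

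Lower with the block were Ctnnd1, Tns3 and Anxa1. Ctnnd1 encodes a catenin that binds cadherin tails near the membrane, and read 6.59, 6.56 and 6.68 in IKZF1, against 7.91, 8.22 and 7.22 in empty vector. The IKZF1 arrays agree closely and lie not far above background, and the empty vector arrays spread by 0.51 (SD, n = 3). The difference was -1.18 ± 0.24 (SE; adjusted p = 0.0650, and with the block 0.0337). Leaving out empty vector 3 made it -1.46 (adjusted p = 0.0022). Tns3 encodes a tensin, which links integrin tails to actin, and read 8.99, 8.87 and 8.84 in IKZF1, against 9.58, 9.62 and 9.26 in empty vector. No array of one group reached the other, and the difference of -0.59 ± 0.11 (SE) had an adjusted p of 0.0508, just short of the threshold. It passed with the block (0.0215), without empty vector 3 (0.0080), with dim genes left out (0.0470), with a pseudocount of 16 (0.0499) and with arrays centred on their medians (0.0437). Anxa1 encodes annexin A1, which binds membranes when calcium rises and is induced by glucocorticoids. It read 8.36, 8.06 and 7.71 in IKZF1, against 9.11, 9.47 and 8.37 in empty vector. The highest IKZF1 array lay just under the lowest empty vector array, and array 3 was the lowest of each group. The difference was -0.94 ± 0.30 (SE; adjusted p = 0.171, and with the block 0.0285). Leaving out empty vector 3 made it -1.25 (adjusted p = 0.0229).

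Talin, kindlin, vinculin and several scaffold genes did not pass in either fit. Tln1, the gene of talin 1, which binds and activates integrin beta tails, had a difference of 0.17 (95% interval -0.12 to 0.47), and Fermt3, for the blood cell kindlin, one of 0.01 (-0.28 to 0.31). Ilk, for integrin-linked kinase, had -0.02 (-0.24 to 0.20). Its partners in the complex of integrin-linked kinase and parvin, Parvb and Parvg, had 0.34 (0.03 to 0.64, adjusted p = 0.237) and -0.15 (-0.34 to 0.04). The scaffold gene Pxn, for paxillin, had -0.08, Zyx, for zyxin, 0.05, and Vcl, for vinculin, 0.16. With empty vector 3 omitted, the differences were 0.049 for Tln1, -0.11 for Fermt3, 0.064 for Ilk, 0.21 for Parvb and -0.23 for Pxn. Vcl read 9.50, 9.57 and 9.21 in IKZF1, against 9.43, 9.74 and 8.65 in empty vector, and was -0.16 without empty vector 3.

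The membrane to actin linkers Msn and Ezr, for moesin and ezrin, had 0.16 and -0.26. Msn read 12.997, 13.03 and 12.97 in IKZF1, against 12.82, 12.84 and 12.84 in empty vector. These groups did not overlap and were tight, yet the adjusted p was 0.187. Ezr read 12.16, 12.23 and 12.09 in IKZF1, against 12.55, 12.55 and 12.17 in empty vector, with an adjusted p of 0.296 over all arrays. Without empty vector 3, Ezr passed on the lower side (-0.39, adjusted p = 0.0398). Ctnnb1, for beta-catenin, had 0.01 (-0.19 to 0.22), or 0.079 with that array omitted. Anxa2, not above background, had -0.12, and S100a10, whose product binds annexin A2, had 0.11.

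Outside the member list, Lpxn rose and Rsu1 and Slc3a2 fell among genes of the same machinery. Of 47 measured genes of integrin activation and adhesion complexes, 1 rose and 2 fell, against 1.12% and 1.13% of all genes. The groups did not overlap for 13 of the 47, or 27.7%, against 26.5% of all genes. The riser was Lpxn, for the blood cell paxillin relative leupaxin (0.47 ± 0.07 (SE), adjusted p = 0.0290). Rsu1, whose product belongs to the complex of integrin-linked kinase, read 11.31, 11.36 and 11.44 in IKZF1, against 11.92, 11.95 and 11.77 in empty vector (-0.51, adjusted p = 0.0284). Slc3a2, for the CD98 heavy chain that binds integrin beta tails and carries amino acid transporters, read 12.53, 12.57 and 12.60 in IKZF1, against 13.39, 13.25 and 13.07 in empty vector (-0.67, adjusted p = 0.0232). With the replicate block 2 rose (3.36% of all genes) and 2 fell (3.85% of all genes). The other riser was Rhoh, for a GTPase of blood cells (0.46, adjusted p = 0.14 without the block and 0.018 with it). Lpxn kept its call in 2 of 6 settings that leave out 1 array, without empty vector 2 or 3, and Rsu1 and Slc3a2 in 1 of 6, without empty vector 3. Over those 6 settings their adjusted p ranged from 0.0307 to 0.165, from 0.0138 to 0.164 and from 0.0063 to 0.121.

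Of 40 other adhesion receptors, tetraspanins and matrix ligands, 1 rose, against 1.12% of all genes. The groups did not overlap for 11 of the 40, or 27.5%, against 26.5% of all genes. In limma 8 of the 40 (20.0%) had an unadjusted p under 0.05, against 18.4% of all genes, so the list lay near the general rate. Lgals3, the gene of galectin 3, which binds sugars on integrins and other surface proteins, read 9.44, 9.90 and 9.02 in IKZF1, against 7.42, 7.76 and 7.13 in empty vector. The groups were far apart, and the same-numbered differences were 2.02, 2.14 and 1.89. The difference was 2.02 ± 0.25 (SE), or 4.04-fold higher (adjusted p = 0.0189). With the replicate block 4 were higher (3.36% of all genes). Besides Lgals3 these were Icam2, Lama5, for a laminin chain (0.41), and Pmp22, a relative of Emp1 (0.30). Lgals1, the galectin among the members, did not pass. Of 12 further annexin and S100 genes, 1 rose (1.12% of all genes). The groups did not overlap for 3 of the 12, or 25.0%, against 26.5% of all genes. S100a4, for a calcium-binding partner of non-muscle myosin, read 7.31, 7.54 and 7.26 in IKZF1, against 6.28, 6.48 and 6.07 in empty vector. This was 2.12-fold higher (adjusted p = 0.0154). For S100a4 empty vector 3 lay below the background line, so the size of the rise rests in part on a reading close to background. Leaving out 1 array, Lgals3 kept its call in 3 of 6 settings (without IKZF1 3, empty vector 2 or empty vector 3; adjusted p from 0.0141 to 0.125) and S100a4 in 2 of 6 (without empty vector 2 or 3; adjusted p from 0.0087 to 0.108). With the replicate block 1 of the 12 was also lower (3.85% of all genes). This was Anxa5, for annexin A5 (-0.83, adjusted p = 0.039 with the block and 0.12 without it). Empty vector 3 was the lowest empty vector array for 11 of these 12 annexin and S100 genes.

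**Figure D4:**
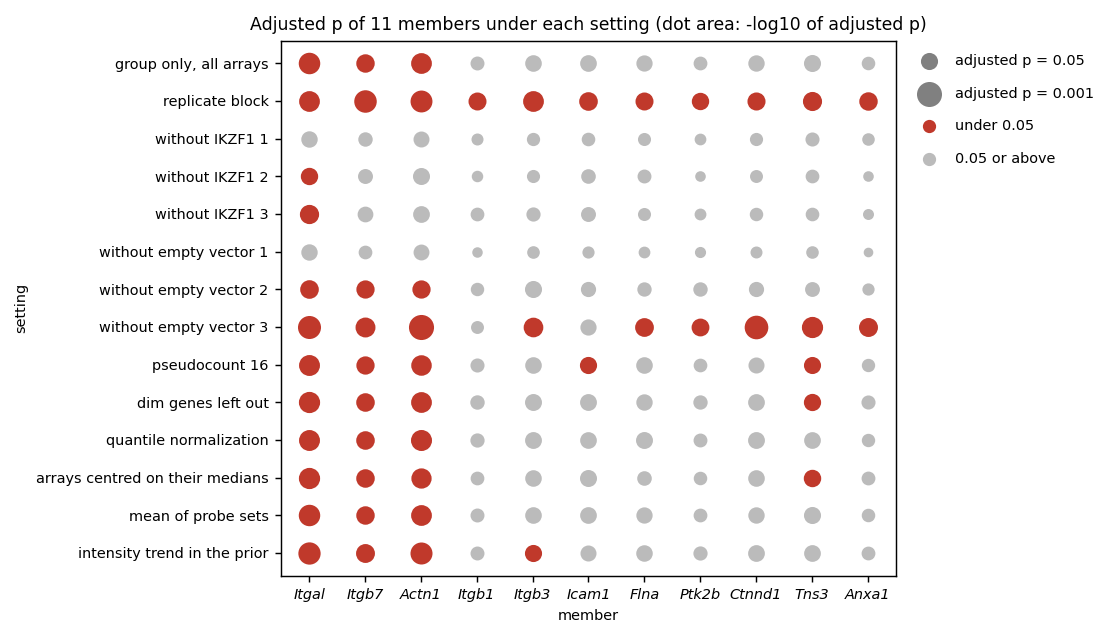
Adjusted p of 11 members (columns) under the fit with group as the only term and 13 other settings (rows); dot area grows with -log10 of the adjusted p, and red dots are under 0.05. Itgal, Itgb7 and Actn1 passed under each setting that kept all 6 arrays, and the other 8 passed mostly with the replicate block or without empty vector 3.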

How the data were processed

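Total RNA was read on 1-colour Affymetrix arrays. The deposited intensity values had been normalized by the RMA method, which the submitters' processing notes name without a version. They are linear, from 11.1 to 23523, with array medians from 100.2 to 107. Log2(intensity + 1) was computed from the deposited values. Of 35421 probe sets, 21789 had 1 gene symbol, 1621 several and 12011 none; the brightest stood for each of 19936 genes, with no filter on level.

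Groups, taken from the titles, were set against each other in limma 3.58.1 under R 4.3.3 (lmFit, eBayes, 2-sided) over all genes with Benjamini-Hochberg adjustment at 0.05, group being the only term. The fit was tested on simulated data in which the arrays varied independently of each other. Neither pairing by replicate number nor an array apart from its group was simulated, so that test does not cover them. Alternatives were a replicate block, leaving out each array, a pseudocount of 16, a background filter, quantile normalization, median centring, the mean of probe sets and an intensity trend. Across genes, same-numbered arrays deviated together from their group means (r = 0.24, 0.60 and 0.66), though IKZF1 2 with empty vector 1 also reached 0.11. On the data alone, numbers were taken as pairs in the replicate block. The fit with group as the only term, which gives the main calls, leaves this pairing out. The labels do not say what the numbers mark.

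Members and lists were chosen with earlier results of these data known. Named are all measured members, with all values for those past the threshold in either fit. Each gene of the other lists past the threshold is named, or else the smallest p of its list. For the lists of cell type markers, the rule of the smallest p was not used. Other genes are named as chosen after their values were seen. The number of arrays limits precision.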

Additional observations from a re-analysis of the deposited data

How the results depend on the processing

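With the replicate block 6 members were higher and 5 lower (3.36% and 3.85% of all genes), in place of 2 and 1 (1.12% and 1.13%). Leaving out single arrays gave 0 to 5 higher and 0 to 6 lower members. Over all 19936 genes it gave 21 to 360 higher and 2 to 587 lower, against 223 and 225 with all arrays. With a pseudocount of 16, with dim genes left out and with arrays centred on their medians 2 members were lower, the second being Tns3. Of the genes tested in those settings, 282 of 19936, 243 of 12837 and 232 of 19936 were lower. No member passed in limma without IKZF1 1, where 22 of all 19936 genes were higher and 2 lower. The same held without empty vector 1, where 21 of all genes were higher and 7 lower. Itgal, Itgb7 and Actn1 were among the calls under each other setting that kept all arrays. The 11 members past the threshold in either fit kept their direction in all 13 settings. Among the other 36, the direction turned at least once for 17, never past the threshold. Leaving out single arrays, the log2 difference ranged from -0.033 to 0.087 for Itga2, -0.38 to 0.14 for Itga6, -0.074 to 0.0021 for Itgax, -0.043 to 0.037 for Itgav, -0.15 to 0.31 for Itgb2, -0.21 to 0.0087 for Itgb5, -0.0068 to 0.10 for Itgb8, -0.092 to 0.099 for Cd47, -0.41 to 1.13 for Fn1, -0.32 to 0.44 for Lgals1, -0.35 to 0.42 for Emp1, -0.16 to 0.39 for Vcl, -0.014 to 0.14 for Zyx, -0.23 to 0.0081 for Pxn, -0.11 to 0.089 for Fermt3, -0.089 to 0.064 for Ilk and -0.063 to 0.079 for Ctnnb1. With quantile normalization Itga2 had -0.0030 and Itgav 0.027. With arrays centred on their medians Itga2 had -0.012, Cd47 -0.025, Fermt3 -0.030 and Ctnnb1 -0.029, and with the mean of probe sets Cd47 had -0.026. The cause of these changes was not tested. Dim probe sets bound what can be read: 12 members were not above background, and the filter left 35 to test.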
